A study of Homo sapiens with 25 samples.

Results

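The genes described here are the FOXO transcription factors FOXO1, FOXO3 and FOXO4 and 6 genes known as their targets or as marks of resting lymphocytes: KLF2, IL7R, S1PR1, PIK3IP1, IRS2 and BCL6. They were taken by symbol, and all 9 were found among the 31919 genes of the expression table. RNA was measured in DND-41, an established line from a human T-cell acute lymphoblastic leukaemia, cultured in medium holding 100%, 50%, 25%, 12.5% or none of the full amount of histidine, an essential amino acid. Day 6 has 2 libraries for 25% and 3 for each of the 4 other levels, and day 9 has 2 libraries for 50%, 3 for each of 100%, 25% and 12.5%, and none for medium lacking histidine. No group carried a further allele or agent in the labels, and the whole set rests on a single line. In the no-histidine group the library of replicate 1 is titled day 6 but carries a day 9 time label, and it was kept at day 6.

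FOXO proteins are forkhead transcription factors held in check by insulin and growth factor signalling. When phosphatidylinositol 3-kinase (PI3K) is active, the kinase AKT phosphorylates them, 14-3-3 proteins bind them and they leave the nucleus. When that signal drops they return to DNA and switch on genes for cell cycle arrest, stress resistance and survival. In T cells FOXO1 is known for keeping up the interleukin-7 receptor gene IL7R, and KLF2 and S1PR1, which let resting cells leave lymphoid organs. This control acts largely on the location of the proteins, which RNA levels do not show.

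Values are the authors' normalized counts. Changes are on the log2(normalized count + 1) scale, given with their standard error, which understates the change of low genes. They were tested with limma over 18799 genes with Benjamini-Hochberg adjustment, and a gene is said to rise, fall or be called where its adjusted p was under 0.05. Levels of different genes are not compared, because the values are not scaled by gene length. Nothing in the labels says whether replicates came from separate cultures, and p-values therefore reflect only the spread among these libraries, which may be technical. Comparisons with 100% histidine on the same day share their control libraries.

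Normalized counts added up to 13.6 M to 16.1 M per library (median 15.3 M). Of 10 T-lineage markers 8 were at 10 or more in all 25 libraries, among them CD3E at 11530 to 18477, while PTCRA stayed under 10. Summed markers of B cells reached at most 27.2, of myeloid cells 36.8, of erythroid cells 7.89 and of fibroblasts 60.0. Summed endothelial markers were at 382 to 747, nearly all of it PECAM1, while CDH5 and VWF stayed under 10. Keratins 8, 18 and 19, markers of epithelial cells, added up to more than 100 in 6 libraries, 2 each at 100% and 50% on day 6 and at 25% on day 9, where sums reached 1406, 1196 and 1358. The 3 other groups of day 6 had sums of 0 to 60.3 and the 3 other groups of day 9 of 1.68 to 56.4. The 5.8S ribosomal RNA row also differed between groups of day 6, at 153 to 1181 at 100% and at 74.8 to 88.2 at 12.5%. On day 9 it was at 157 to 360 at 100%, 236 to 882 at 25% and 95.8 to 152 at 12.5%. Calls of the 9 genes that ended without the keratin-high libraries, or with either level as a covariate, are given with the gene or step. Without those libraries 1 is left in each of those 3 groups, and it is then assumed to vary like the others.

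FOXO factors bind DNA at forkhead elements whose core is GTAAACA, which reads TGTTTAC on the other strand. In RefSeq windows of the 250 bases before each annotated start (GRCh38.p14), the 9 genes had 14 windows, and 0 of them held this core, against 2.98% of 35116 windows of all genes. The shorter motif AAACA, searched with its reverse complement TGTTT and lying within that core, was in 8 of the 14 windows, belonging to 6 of the 9 genes, and in 40.4% of all windows. A match is only a description of letters, and a missing match says nothing about binding elsewhere. The stretches shown are those of PIK3IP1, IL7R and IRS2, the targets that carry most of the changes below and whose windows hold a long stretch outside the gene's own exons in GENCODE 29; both windows of BCL6 lie wholly within its exons. They read 5′ to 3′ on the gene's strand, and capitals mark the shorter motif on either strand.
PIK3IP1, chr22:31292535-31292784, minus strand: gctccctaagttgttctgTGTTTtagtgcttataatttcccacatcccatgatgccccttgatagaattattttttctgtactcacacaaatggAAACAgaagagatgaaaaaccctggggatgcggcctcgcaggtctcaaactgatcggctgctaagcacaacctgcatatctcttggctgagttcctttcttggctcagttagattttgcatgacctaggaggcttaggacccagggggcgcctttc
IL7R, chr5:35856688-35856848, plus strand: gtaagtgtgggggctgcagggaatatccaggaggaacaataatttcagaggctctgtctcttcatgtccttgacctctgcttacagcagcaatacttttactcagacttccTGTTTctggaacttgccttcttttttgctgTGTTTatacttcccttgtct
IRS2, chr13:109786584-109786833, minus strand: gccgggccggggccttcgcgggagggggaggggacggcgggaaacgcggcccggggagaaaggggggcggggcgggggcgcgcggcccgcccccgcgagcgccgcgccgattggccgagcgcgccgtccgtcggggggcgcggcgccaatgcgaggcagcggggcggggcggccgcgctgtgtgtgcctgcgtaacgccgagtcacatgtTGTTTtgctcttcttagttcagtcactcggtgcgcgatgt
PIK3IP1 and IL7R each had 2 matches in these stretches and IRS2 had 1, in a window of 76.4% GC against 46.8% for PIK3IP1 and 44.1% for IL7R.

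Counted over the 9 genes, rises were most numerous at 25% histidine on day 9. There 7 of 9 genes rose and 0 fell, where 18.2% of all tested genes were called in either direction. These were PIK3IP1, IRS2, S1PR1, BCL6, FOXO4, IL7R and FOXO3. The count was 3 when full-histidine replicate 3 was left out, 4 when 25% replicate 1 or 2 was, 4 with keratin as a covariate and 2, PIK3IP1 and BCL6, when the keratin-high libraries were left out. On day 6 at 25% histidine 3 of 9 rose, PIK3IP1, BCL6 and IL7R, against 13.7% of all genes. At 12.5% histidine 2 of 9 rose on day 6 (FOXO3 and PIK3IP1, 27.0% of all genes called) and 3 of 9 on day 9 (FOXO3, IRS2 and PIK3IP1, 20.8% called). The first of these shares is not above its background, and the second was 1 of 9 when full-histidine replicate 3 was left out. Without histidine on day 6, PIK3IP1 rose while FOXO1 and IL7R fell, 3 of 9 where 29.8% of all genes were called, a share close to that background. At 50% histidine 0 of 9 genes were called by limma on either day, with 0% of all genes called on day 6 and 0.00532% on day 9. At an unadjusted p under 0.05 there were 0 of 9 genes on day 6 and 2 on day 9, PIK3IP1 and IRS2, and 695 and 906 among all genes. The median change of the 9 genes was 0.40 at 25% on day 6 and 0.36 on day 9, beside 0.00 for all tested genes on both days. It was 0.13 and 0.19 at 12.5% on days 6 and 9 (all genes 0.04 and 0.03) and -0.24 without histidine (all genes 0.03).

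**Figure D1:**
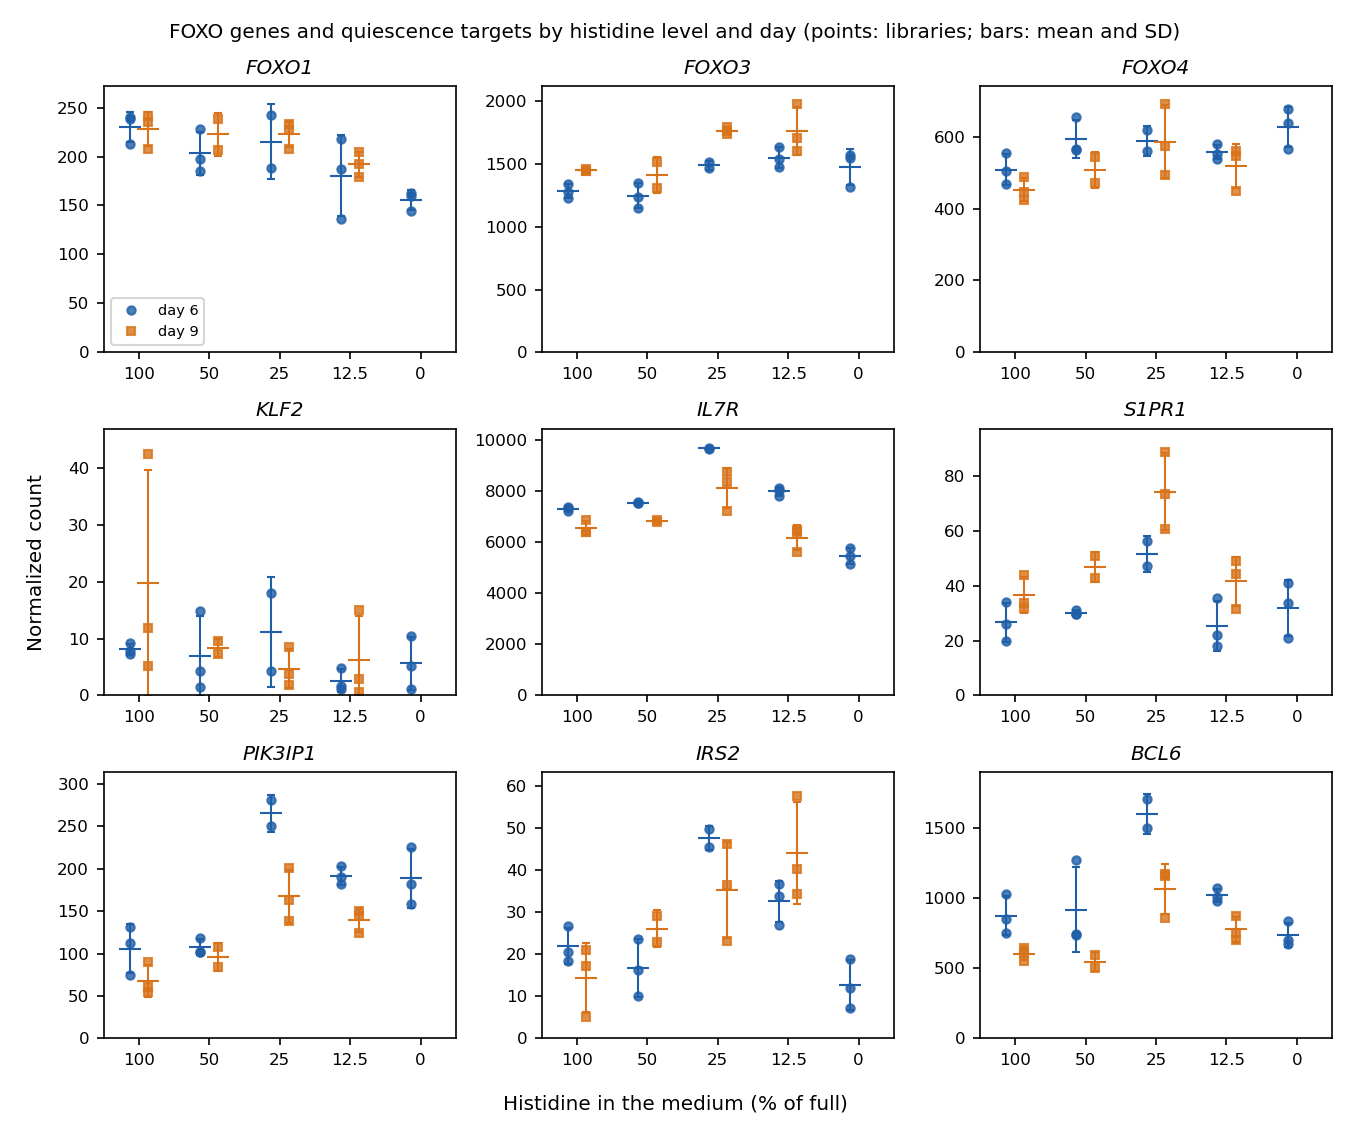
Normalized counts (y axis, linear, from 0) of the 9 genes at each histidine level (x axis, % of full), with day 6 as blue circles and day 9 as orange squares; each point is a library, and bars give the mean and SD, drawn only above 0. IL7R, S1PR1, PIK3IP1 and BCL6 have their highest group mean at 25% on both days, and IL7R without histidine lies at 5149 to 5784, below every other day 6 library.

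**Figure D2:**
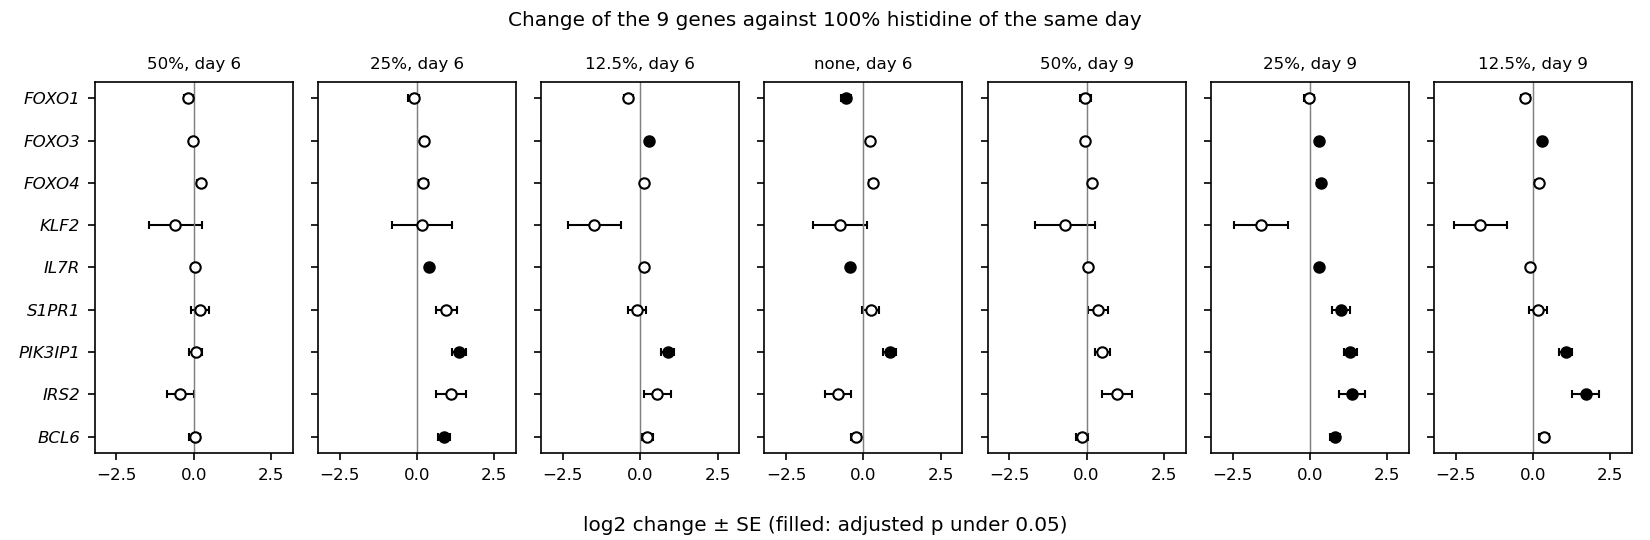
Change against 100% histidine of the same day (x axis, log2 change of normalized count + 1, points with SE bars) for the 9 genes in the 7 comparisons; filled points have an adjusted p under 0.05 in limma. The panel of 25% on day 9 holds 7 filled points, all to the right of 0, and both panels of 50% hold 0.

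FOXO1, the FOXO factor best known in T cells (chr13:40469953-40666597, minus strand, GENCODE 29 on GRCh38), was called only in the medium without histidine, where it was lower. Its 3 day 6 libraries at full histidine held 240, 238 and 213 normalized counts. The 3 without histidine held 160, 163 and 144, all below the full-histidine libraries. The group means were 156 ± 10.1 and 230 ± 15.2 (SD, n = 3 each), a fall of 0.56 ± 0.15 on the log2 scale (adjusted p = 0.00553). Fewer cells of a kind and less RNA per cell cannot be told apart in such bulk samples. At 12.5% on day 6 FOXO1 held 136, 187 and 218, which overlapped full histidine (-0.38 ± 0.15, adjusted p = 0.066). At 25% it was at 242 and 188 on day 6 and at 233, 227 and 208 on day 9, near the day 9 full-histidine libraries at 235, 208 and 241 (change -0.03 ± 0.15, adjusted p = 0.926). The 12.5% libraries of day 9, at 192, 205 and 179, lay below those of full histidine (-0.25 ± 0.15, adjusted p = 0.271). Without the keratin-high libraries the change without histidine was -0.45 (adjusted p = 0.214), which ended the call. FOXO1 shares its locus with LINC00598 on the same strand, which had at most 11.4 normalized counts.

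FOXO3, the factor most tied to stress responses (chr6:108559835-108684774, plus strand), was higher at 12.5% histidine on both days and at 25% on day 9. On day 9 the full-histidine libraries held 1444, 1440 and 1454 normalized counts and those at 25% held 1763, 1736 and 1788, with no overlap. The means were 1446 ± 6.73 and 1762 ± 26.2 (SD, n = 3 each), a rise of 0.29 ± 0.09 (adjusted p = 0.0267). At 12.5% on day 9 the libraries held 1706, 1975 and 1599 (0.28 ± 0.09, adjusted p = 0.0275). On day 6 FOXO3 went from 1277, 1338 and 1225 at full histidine to 1537, 1636 and 1472 at 12.5% (0.27 ± 0.09, adjusted p = 0.0242). The 25% libraries of day 6, at 1463 and 1510, lay above full histidine as well, with 0.22 ± 0.10 and an adjusted p of 0.165. Without histidine the values were 1572, 1543 and 1312, overlapping full histidine (0.20 ± 0.09, adjusted p = 0.0927). These changes are small and the calls lie near the threshold. Leaving out any library of either group ended the call at 25% on day 9 (changes of 0.27 to 0.30, adjusted p = 0.0567 to 0.0721). Leaving out any full-histidine library or replicate 2 at 12.5% ended that of 12.5% on day 9 (0.0619 to 0.177), and replicates 1 or 3 at 100% or 1 or 2 at 12.5% that of day 6 (0.0549 to 0.105). The day 6 call also ended with 5.8S rRNA as a covariate (0.32, adjusted p = 0.0597), and all 3 ended when the keratin-high libraries were left out (0.34, adjusted p = 0.119 at 12.5% on day 6, 0.28, adjusted p = 0.0532 at 12.5% on day 9 and 0.26, adjusted p = 0.316 at 25% on day 9). The keratin covariate ended the last as well (0.27, adjusted p = 0.0929).

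The near-identical copy FOXO3B can share reads with FOXO3, so the split between them is uncertain. FOXO3B held 240 to 454 normalized counts, and at 25% on day 6 its change was -0.44 (adjusted p = 0.117), opposite in sign to that of FOXO3. From 25% to 12.5% on day 6 FOXO3B rose by 0.67 ± 0.18 (adjusted p = 0.0116), where FOXO3 changed by 0.06 ± 0.10 (adjusted p = 0.746). FOXO4 (chrX:71096197-71103535, plus strand), also regulated by AKT, was called only at 25% on day 9. Its libraries there held 692, 575 and 492, against 447, 487 and 424 at full histidine, and the lowest of the former lay just above the highest of the latter. The rise was 0.36 ± 0.12 (adjusted p = 0.0391). Leaving out 100% replicate 1 or 3 or 25% replicate 1 or 2 ended it (adjusted p = 0.0818 to 0.243, lowest change 0.23), as did leaving out the keratin-high libraries (0.35, adjusted p = 0.239) and the keratin covariate (0.38, adjusted p = 0.0711). Without histidine FOXO4 held 566, 677 and 637 against 554, 504 and 467 on day 6, with no overlap (0.30 ± 0.12, adjusted p = 0.0622). This change passed with upper-quartile rescaling (0.37, adjusted p = 0.0141) and without the library of conflicting day labels (0.37, adjusted p = 0.0406). The 50% libraries of day 6, at 565, 655 and 562, and those at 25%, at 618 and 559, also lay above full histidine. Their changes of 0.22 ± 0.12 and 0.21 ± 0.13 were not called. FOXO6, another family member, was at 2.01 to 18.4 in all libraries and was not called.

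IL7R encodes the alpha chain of the interleukin-7 receptor, which carries survival signals in T-lineage cells and is a textbook FOXO1 target (chr5:35852695-35879603, plus strand). It moved in both directions with histidine. On day 6 the full-histidine libraries held 7345, 7207 and 7392 normalized counts, a narrow range, and those at 50% held 7543, 7582 and 7528. At 25% the values were 9703 and 9650, above every other library of the series. At 12.5% they were 7815, 8132 and 8029, and without histidine 5784, 5461 and 5149, below every other day 6 library. Against full histidine (7315 ± 96.1, n = 3) IL7R rose by 0.40 ± 0.08 at 25% (9676 ± 37.2, n = 2, adjusted p = 0.00174). It fell by 0.42 ± 0.07 without histidine (5465 ± 317, n = 3, adjusted p = 0.000107).

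On day 9 IL7R held 6387, 6883 and 6399 at full histidine and 7234, 8348 and 8760 at 25%, again with no overlap (0.30 ± 0.07, adjusted p = 0.0052). At 12.5% it held 6496, 6415 and 5630, which overlapped full histidine (-0.09 ± 0.07, adjusted p = 0.46). The change at 12.5% on day 6 was 0.13 ± 0.07 (adjusted p = 0.221), and it passed with quantile normalization (0.30, adjusted p = 0.00874) and upper-quartile rescaling (0.21, adjusted p = 0.0345). Without the keratin-high libraries both rises at 25% kept their size but not their call (0.39, adjusted p = 0.0636 on day 6 and 0.35, adjusted p = 0.0673 on day 9). The fall without histidine held under all 38 alternatives.

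KLF2, a zinc-finger factor that holds T cells at rest and drives S1PR1 (chr19:16324817-16327874, plus strand), was barely detected. Its normalized counts ran from 0.580 to 42.4 with a median of 5.22, and 6 of 25 libraries reached 10. The highest value was full-histidine replicate 2 of day 9, whose group otherwise held 11.9 and 5.10. KLF2 was called by limma in 0 of the 19 comparisons. Its lowest unadjusted p was 0.0609, at 12.5% on day 9 (-1.70 ± 0.86, adjusted p = 0.176), and leaving out 12.5% replicate 3 gave a call there (-2.60, adjusted p = 0.0495). Its standard errors of 0.86 to 1.30 leave changes of that size undetectable at this level. At 12.5% on day 6 its mean was 2.57 ± 2.01 against 8.07 ± 0.970 at full histidine (SD, n = 3 each; change -1.48 ± 0.86, adjusted p = 0.221).

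S1PR1, the sphingosine-1-phosphate receptor through which lymphocytes leave tissues (chr1:101236865-101243713, plus strand), was expressed at a low level and was highest at 25% histidine. On day 9 its 25% libraries held 88.8, 73.2 and 60.8 normalized counts. Full histidine held 43.9, 33.7 and 32.0, 50% held 42.8 and 50.7, and 12.5% held 44.1, 48.9 and 31.6, all below the 25% group. The rise over full histidine was 1.00 ± 0.29 (74.3 ± 14.0 against 36.5 ± 6.44, SD, n = 3 each, adjusted p = 0.0181). On day 6 the 25% libraries, at 56.1 and 47.0, were also above all others of that day, which ran from 18.0 to 41.1, but the change of 0.95 ± 0.33 had an adjusted p of 0.0546. The call on day 9 ended without 100% replicate 2 or 3 or 25% replicate 1 (adjusted p = 0.0597 to 0.0876), with the keratin covariate (0.96, adjusted p = 0.0615) and when the keratin-high libraries were left out (1.00, adjusted p = 0.222).

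PIK3IP1 encodes a transmembrane protein that inhibits PI3K and is itself lowered when T cells are activated (chr22:31281593-31292534, minus strand). It was higher in every comparison of 25% histidine or less with full histidine. On day 6 full histidine held 112, 131 and 74.3 normalized counts and 50% held 102, 102 and 119. The 25% libraries held 250 and 281, the 12.5% libraries 182, 203 and 190 and those without histidine 182, 226 and 158, with no value inside the range of the 2 richer media. The changes against full histidine (106 ± 28.9, n = 3) were 1.35 ± 0.23 at 25% (266 ± 22.2, n = 2, adjusted p = 0.000284), 0.89 ± 0.21 at 12.5% (192 ± 10.2, n = 3, adjusted p = 0.00246) and 0.85 ± 0.21 without histidine (189 ± 34.4, n = 3, adjusted p = 0.00273).

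On day 9 full histidine held 60.2, 54.7 and 89.6 and 50% held 108 and 84.5. The 25% libraries held 201, 163 and 139 and those at 12.5% held 150, 144 and 124, again all above the richer media. PIK3IP1 rose by 1.30 ± 0.21 at 25% (adjusted p = 8.08e-05) and by 1.05 ± 0.21 at 12.5% (adjusted p = 0.000714). All these rises held under all 38 alternatives, except that of 12.5% on day 6, which was 0.45 (adjusted p = 0.203) with 5.8S rRNA as a covariate. At 50% on day 9 the change was 0.51 ± 0.23, with an adjusted p of 0.996.

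IRS2, an adaptor that couples the insulin and IGF1 receptors to PI3K and is induced by FOXO factors in fasting liver (chr13:109752698-109786568, minus strand), was low and variable. On day 9 full histidine held 20.9, 17.3 and 5.16 normalized counts, 25% held 23.2, 46.1 and 36.4 and 12.5% held 40.1, 57.6 and 34.3. The 50% libraries, at 29.1 and 23.0, also lay above full histidine, but 0.99 ± 0.48 was not called (adjusted p = 0.996). The step from 50% to 25% was 0.38 ± 0.48 (adjusted p = 0.686). The 25% and 12.5% libraries lay above all full-histidine libraries, with rises of 1.37 ± 0.43 (adjusted p = 0.0267) and 1.70 ± 0.43 (adjusted p = 0.00555). The lowest library, full-histidine replicate 3, carries part of both: without it the changes were 0.80 (adjusted p = 0.213) and 1.14 (adjusted p = 0.0574). The call at 25% also ended without 25% replicate 2 (1.15, adjusted p = 0.119) or 3 (1.32, adjusted p = 0.0726), or without the keratin-high libraries (1.80, adjusted p = 0.1).

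On day 6 IRS2 held 26.8, 20.6 and 18.4 at full histidine, 45.5 and 49.6 at 25%, 36.6, 27.0 and 33.9 at 12.5% and 18.9, 7.12 and 12.0 without histidine. The 25% and 12.5% libraries lay above full histidine, but 1.10 ± 0.48 and 0.55 ± 0.43 were not called (adjusted p = 0.14 and 0.37). Without histidine the change was -0.82 ± 0.43 (adjusted p = 0.158). The 50% libraries of day 6 held 10.1, 16.3 and 23.7, which overlapped full histidine.

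BCL6, a transcriptional repressor that FOXO factors can induce and that holds back differentiation and proliferation genes in lymphocytes (chr3:187721377-187745727, minus strand), was called at 25% histidine on both days. On day 6 full histidine held 750, 1025 and 847 normalized counts and the 25% libraries 1496 and 1700, the 2 highest of the series. The 50% libraries held 742, 739 and 1269, of which replicate 3 stood apart. At 12.5% the values were 1069, 979 and 1009 and without histidine 835, 671 and 702. On day 9 full histidine held 610, 552 and 644, 50% held 500 and 593, 25% held 1173, 1156 and 856 and 12.5% held 873, 751 and 703.

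BCL6 rose by 0.88 ± 0.19 at 25% on day 6 (1598 ± 144, n = 2, against 874 ± 139, n = 3, adjusted p = 0.00221) and by 0.81 ± 0.17 on day 9 (1062 ± 178 against 602 ± 46.9, n = 3 each, adjusted p = 0.00125). The day 6 call ended without 25% replicate 3 (0.79, adjusted p = 0.0509), while that of day 9 held under all 38 alternatives. At 12.5% the changes were 0.23 ± 0.17 on day 6 (adjusted p = 0.331) and 0.36 ± 0.17 on day 9 (adjusted p = 0.133). The latter had no overlap with full histidine, and it passed without the keratin-high libraries (0.36, adjusted p = 0.0318).

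The levels of several genes did not follow histidine in 1 direction. Of the 9 genes 6 had their highest day 6 group mean at 25% (KLF2, IL7R, S1PR1, PIK3IP1, IRS2 and BCL6), as had 21.9% of all tested genes. On day 9, which has no group without histidine, 6 did (FOXO3, FOXO4, IL7R, S1PR1, PIK3IP1 and BCL6), against 25.2% of all. The 4 genes IL7R, S1PR1, PIK3IP1 and BCL6 did so on both days, against 12.4%. This ordering was picked out after the values were seen and is a description with no test. The day 6 count includes KLF2, which was barely detected. Its 25% libraries held 18.0 and 4.33 normalized counts there, and those at full histidine 7.28 to 9.15. The day 9 count includes FOXO3, whose mean was 1762 at 25% and nearly the same, 1760, at the lowest level of that day.

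The step from 50% to 25% raised 4 of 9 genes on day 6, where 14.0% of all genes were called. BCL6 rose by 0.85 ± 0.19 (adjusted p = 0.00297), IL7R by 0.36 ± 0.08 (adjusted p = 0.00467), IRS2 by 1.53 ± 0.48 (adjusted p = 0.0331) and PIK3IP1 by 1.29 ± 0.23 (adjusted p = 0.000467). On day 9 this step raised 3 of 9, where 13.8% were called: BCL6 by 0.95 ± 0.19 (adjusted p = 0.0011), PIK3IP1 by 0.79 ± 0.23 (adjusted p = 0.0231) and FOXO3 by 0.32 ± 0.10 (adjusted p = 0.0296). Without the keratin-high libraries replicate 3 alone is left at 50% on day 6, the one with the high BCL6 value, and the BCL6 step of that day was 0.33 (adjusted p = 0.262). That of IRS2 was 0.97 (adjusted p = 0.415), and it also ended without replicate 1 or 2 at 50% (adjusted p = 0.136 and 0.0562) or either 25% library (0.134 and 0.172). Leaving out 25% replicate 3 ended the BCL6 step (0.75, adjusted p = 0.0592) and replicate 2 that of IL7R (0.35, adjusted p = 0.0508), which also ended without the keratin-high libraries (0.36, adjusted p = 0.0633). With a keratin or 5.8S rRNA covariate the IRS2 step was 1.27 or 1.58 (adjusted p = 0.136 and 0.0646). On day 9 the FOXO3 step ended in 8 alternatives, among them without 50% replicate 1 (0.22, adjusted p = 0.326), without any single 25% library (adjusted p = 0.058 to 0.0693), without the keratin-high libraries (0.30, adjusted p = 0.278) and with the keratin covariate (0.31, adjusted p = 0.0661). That of PIK3IP1 ended in 5: without 50% replicate 2 (0.61, adjusted p = 0.202), without 25% replicate 1 or 2 (0.65 and 0.80, adjusted p = 0.102 and 0.0505), on leaving out the keratin-high libraries (0.76, adjusted p = 0.153) and with the keratin covariate (0.69, adjusted p = 0.0718). The BCL6 step of day 9 held under all 38 alternatives.

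The next step, from 25% to 12.5%, lowered 3 of 9 genes on day 6 (17.8% of all genes called). S1PR1 fell by 1.06 ± 0.33 (adjusted p = 0.0277), BCL6 by 0.65 ± 0.19 (adjusted p = 0.019) and IL7R by 0.28 ± 0.08 (adjusted p = 0.0241). On day 9 it lowered IL7R alone, by 0.39 ± 0.07 (adjusted p = 0.00173), where 6.82% of all genes were called, and this call ended without the keratin-high libraries (-0.44, adjusted p = 0.0604). S1PR1 and BCL6 changed by -0.83 ± 0.29 and -0.44 ± 0.17 there (adjusted p = 0.0902 and 0.118). With only 2 libraries at 25% on day 6, leaving out either ended all 3 falls of that day (adjusted p = 0.0639 to 0.19). With 5.8S rRNA as a covariate the changes of IL7R, S1PR1 and BCL6 on day 6 were -0.20, -0.96 and -0.67 (adjusted p = 0.228, 0.146 and 0.079), and PIK3IP1 passed (-0.93, adjusted p = 0.0254 in place of -0.47, adjusted p = 0.172). With the keratin covariate BCL6 was at -0.53 (adjusted p = 0.0518), and with quantile normalization IL7R was at -0.10 (adjusted p = 0.518).

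The last step, from 12.5% to no histidine, was measured on day 6 only and lowered 2 of 9 genes, where 15.3% of all genes were called. IL7R fell by 0.55 ± 0.07 (adjusted p = 1.35e-05), a call that held under all 38 alternatives. IRS2 fell by 1.37 ± 0.43 (adjusted p = 0.0302), which ended without replicate 2 or 3 of the no-histidine group or any 12.5% library (adjusted p = 0.0527 to 0.165). BCL6 changed by -0.47 ± 0.17 with no overlap (adjusted p = 0.0572) and passed without the keratin-high libraries (-0.47, adjusted p = 0.0098) and with the keratin covariate (-0.56, adjusted p = 0.0248). PIK3IP1 changed by -0.03 ± 0.21 (adjusted p = 0.946).

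**Figure D3:**
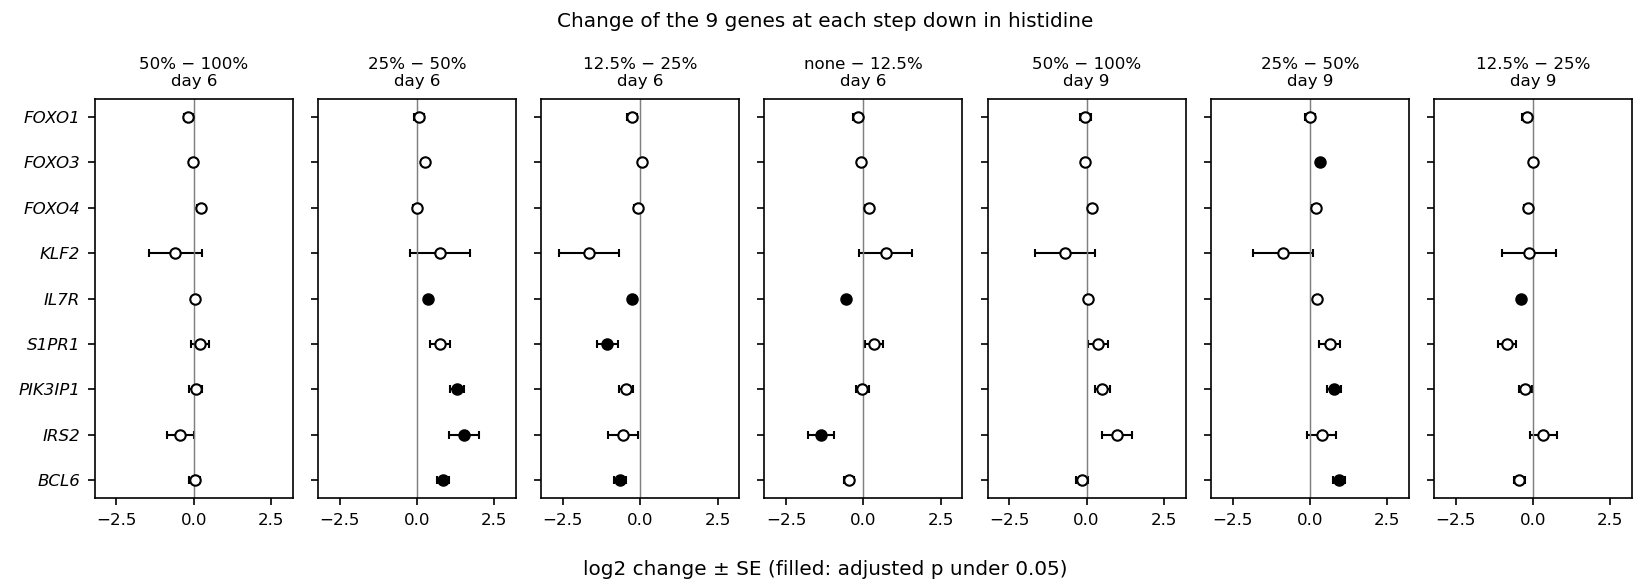
Change at each step down in histidine (x axis, log2 change of normalized count + 1, lower minus higher level, points with SE bars) for the 9 genes on days 6 and 9; filled points have an adjusted p under 0.05 in limma. The step from 50% to 25% holds filled points to the right of 0 (4 on day 6, 3 on day 9), and the steps below 25% hold filled points to the left of 0 only (3 and 2 on day 6, 1 on day 9).

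Few of these genes were called between days at one histidine level, but a missing call does not show a missing change. From day 6 to day 9 BCL6 changed by -0.53, -0.70, -0.60 and -0.40 at 100%, 50%, 25% and 12.5%, each time with no overlap. In the same order IL7R changed by -0.16, -0.14, -0.26 and -0.37, also with no overlap. FOXO3 changed by 0.18, 0.18, 0.25 and 0.18. Between days 6 and 9 at full histidine 0 of 9 were called by limma, where 2.17% of all genes were, and 3 of 9 had an unadjusted p under 0.05 (BCL6, PIK3IP1 and IL7R, all lower on day 9), beside 15.6% of all genes. PIK3IP1 passed there with 5.8S rRNA as a covariate (-0.77, adjusted p = 0.0346) and without replicate 3 of day 6 (-0.85, adjusted p = 0.0481). BCL6 passed there with library weights (-0.53, adjusted p = 0.0263). At 25% histidine 0 of 9 were called as well, where 1.10% of all genes were, and 4 of 9 had an unadjusted p under 0.05, beside 14.2% of all genes. At 50% BCL6 was called, with 500 and 593 on day 9 and 742, 739 and 1269 on day 6 (-0.70 ± 0.19, adjusted p = 0.0493, 2.12% of all genes called), and this call ended in 26 of 38 alternatives. At 12.5% IL7R fell by 0.37 ± 0.07 from day 6 to day 9, from 7992 ± 161 to 6180 ± 478 (SD, n = 3 each, adjusted p = 0.00416), where 8.31% of all genes were called. The test of whether the change from full histidine differed between days called 0 of 9 genes at 50% (0% of all genes), 25% (0.00532%) and 12.5% (0.0638%). At an unadjusted p under 0.05 that test gave 1, 0 and 0 of the 9 genes, and 802, 1034 and 1887 of all 18799. The larger count of genes called at 25% on day 9 than on day 6 is therefore not shown to be a difference between days, and the 25% group of day 6 had 2 libraries instead of 3.

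Upstream of the FOXO factors, 26 genes of insulin, PI3K and AKT signalling were tested. Against full histidine, 1 rose and 4 fell at 25% on day 6, 3 and 4 at 12.5%, and 1 and 7 without histidine, while on day 9 the counts were 5 and 5 at 25% and 2 and 5 at 12.5%. The shares called were 19.2%, 26.9% and 30.8% on day 6 and 38.5% and 26.9% on day 9, in the same order, beside 13.7%, 27.0%, 29.8%, 18.2% and 20.8% of all tested genes. At 12.5% and without histidine on day 6 they are at that background. Their median change ran from -0.15 without histidine to 0.04 at 12.5% on day 6. IRS1, the sister adaptor of IRS2, fell in all 5 comparisons. Without histidine it was at 1688 ± 148 normalized counts against 3593 ± 314 (SD, n = 3 each), a fall of 1.09 ± 0.14 (adjusted p = 1.58e-06), and at 25% on day 9, where IRS2 rose, it was at 1497 ± 231 against 2988 ± 520 and fell by 0.99 ± 0.14 (adjusted p = 1.63e-05). AKT1 fell by 0.53 ± 0.09 without histidine (adjusted p = 0.000106) and by 0.49 ± 0.09 at 25% on day 9 (adjusted p = 0.00054). RICTOR, a core subunit of the mTOR complex that phosphorylates AKT, rose by 0.61 ± 0.13 at 12.5% on day 6 (adjusted p = 0.00136).

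Among 22 tested genes for proteins that modify or bind FOXO factors, 2 rose and 6 fell at 25% on day 6, 4 and 8 at 12.5%, 3 and 6 without histidine, and 4 and 4 and 1 and 6 at 25% and 12.5% on day 9. The shares called were 36.4%, 54.5%, 40.9%, 36.4% and 31.8% in that order, beside 13.7%, 27.0%, 29.8%, 18.2% and 20.8% of all genes. For this and the other lists, all genes were not matched to the list for expression level. The part of expression level in these shares was not tested. The median changes of this list ran from -0.18 to -0.05. PRMT1, an arginine methyltransferase that acts on FOXO1, fell by 0.86 ± 0.15 at 25% on day 9, from 4763 ± 913 to 2593 ± 80.2 (SD, n = 3 each, adjusted p = 0.000187). SKP2, a ubiquitin ligase subunit that targets FOXO1, fell by 0.97 ± 0.15 without histidine (adjusted p = 1.57e-05). The 14-3-3 genes YWHAG and YWHAE fell by 0.71 ± 0.09 and 0.59 ± 0.13 at 25% on day 6 (adjusted p = 1.76e-05 and 0.00377). The 14-3-3 genes did not all move one way. YWHAZ rose at 12.5% and without histidine on day 6 and at 25% on day 9. YWHAH fell at 12.5% and without histidine on day 6.

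Other known FOXO targets split. Of 27 tested, 4 rose and 1 fell at 25% on day 6, 4 and 7 at 12.5% and again 4 and 7 without histidine, and 5 and 3 and 4 and 4 at 25% and 12.5% on day 9, with medians of -0.03 to 0.13. In that order 18.5%, 40.7%, 40.7%, 29.6% and 29.6% were called, beside the 13.7%, 27.0%, 29.8%, 18.2% and 20.8% of all genes. GADD45A, a growth arrest gene, rose by 1.14 ± 0.10 at 25% on day 9 (1687 ± 102 against 762 ± 32.8, SD, n = 3 each, adjusted p = 3.91e-08) and by 1.00 ± 0.11 on day 6 (adjusted p = 2.63e-06), yet was among those that fell without histidine. CCNG2, an unconventional cyclin linked to arrest, rose by 0.92 ± 0.11 at 25% on day 6 (adjusted p = 4.17e-06) and was at 0.14 ± 0.10 without histidine (adjusted p = 0.327). CDKN1B, the cell cycle inhibitor p27, fell by 0.56 ± 0.09 without histidine (adjusted p = 5.01e-05) and rose by 0.40 ± 0.09 at 25% on day 9 (adjusted p = 0.00317). FBXO32, a ubiquitin ligase gene of muscle wasting, rose by 1.23 ± 0.20 without histidine (adjusted p = 3.57e-05). RAG2, of the antigen receptor recombinase, fell by 1.27 ± 0.09 there (474 ± 17.1 against 1144 ± 65.7, SD, n = 3 each, adjusted p = 1.33e-10). BCL2L11, the pro-apoptotic BIM, rose by 0.53 ± 0.09 at 12.5% on day 6 (adjusted p = 0.000102). CCR7, a homing receptor of resting T cells, had group means of 38.2 to 63.8 in these comparisons and was not called in any of them.

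Of 16 other genes of lymphocyte quiescence, 5 rose and 2 fell at 25% on day 6, 7 and 3 at 12.5%, 8 and 2 without histidine, and 7 and 1 and 6 and 2 at 25% and 12.5% on day 9, with medians of 0.19 to 0.31 beside 0.00 to 0.04 for all genes. The shares called in either direction were 43.8%, 62.5% and 62.5% on day 6 (all genes 13.7%, 27.0% and 29.8%) and 50% at both levels on day 9 (18.2% and 20.8%). BTG1, an antiproliferative gene, rose by 0.93 ± 0.13 without histidine (2932 ± 323 against 1533 ± 79.0, SD, n = 3 each, adjusted p = 6.17e-06) and by 0.94 ± 0.13 at 25% on day 9 (adjusted p = 1.53e-05). SLFN5, of the Schlafen family, rose by 1.26 ± 0.19 at 12.5% on day 6 (adjusted p = 3.35e-05). PDCD4, an inhibitor of translation, rose by 0.81 ± 0.09 at 25% on day 9 (adjusted p = 6.20e-07). VSIR, which encodes the checkpoint protein VISTA, fell by 0.83 ± 0.16 at 25% on day 6 (adjusted p = 0.000778).

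Of 11 tested genes that transmit or answer the interleukin-7 receptor signal, 5 fell at 25% on day 6, where IL7R rose, and 6 fell at 12.5%, with none rising. Without histidine, where IL7R fell, 3 fell and 1 rose, and on day 9 there were 4 falls and no rise at both 25% and 12.5%. Their medians ran from -0.44 to -0.08. Called were 45.5% at 25%, 54.5% at 12.5% and 36.4% without histidine on day 6 (all genes 13.7%, 27.0% and 29.8%), and 36.4% at both levels on day 9 (18.2% and 20.8%). CISH, a feedback inhibitor induced by STAT5, fell by 0.88 ± 0.08 at 25% on day 6 (6768 ± 24.9, n = 2, against 12422 ± 331, n = 3, adjusted p = 3.82e-07) and by 0.80 ± 0.08 on day 9 (adjusted p = 1.04e-07). SOCS1, another feedback inhibitor, fell by 0.83 ± 0.14 at 25% on day 6 (adjusted p = 0.000323) and rose by 0.37 ± 0.13 without histidine (adjusted p = 0.031). STAT5A, a signal transducer, fell by 1.37 ± 0.17 without histidine (85.1 ± 16.9 against 219 ± 19.5, SD, n = 3 each, adjusted p = 1.06e-06). PIM1, a STAT5-induced kinase, fell by 0.80 ± 0.08 there (adjusted p = 1.58e-08). STAT5B, the other STAT5 gene of the list, had a median of 2037 normalized counts and was not called in any of these comparisons.

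Around S1PR1, 12 genes of sphingosine-1-phosphate synthesis, transport and signalling were tested. At 25% on day 6, 1 rose and 2 fell, at 12.5% 2 and 4, without histidine 3 and 2, and on day 9 3 and 2 at 25% and 2 and 4 at 12.5%. These are 25%, 50%, 41.7%, 41.7% and 50% of the list, beside 13.7%, 27.0%, 29.8%, 18.2% and 20.8% of all genes. SPHK1, a kinase that makes sphingosine-1-phosphate, fell by 1.02 ± 0.19 at 25% on day 9 (59.9 ± 11.3 against 122 ± 13.2, SD, n = 3 each, adjusted p = 0.000428). SPNS2, its exporter, fell by 1.16 ± 0.19 there (adjusted p = 0.000114). CD69, which pulls S1PR1 from the cell surface, rose by 0.68 ± 0.15 there (adjusted p = 0.00247). CD69 also rose without histidine and at 12.5% on days 6 and 9 (0.48, 0.48 and 0.46, adjusted p = 0.0175, 0.021 and 0.0313), where S1PR1 was not called.

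Of 12 corepressors and partners of BCL6, 2 rose and 0 fell at 25% on day 6, 3 and 2 at 12.5%, 2 and 3 without histidine, and 3 and 1 and 0 and 2 at 25% and 12.5% on day 9. These are 16.7%, 41.7%, 41.7%, 33.3% and 16.7% of the list, beside 13.7%, 27.0%, 29.8%, 18.2% and 20.8% of all genes. PRDM1, a repressor that BCL6 itself holds down in B cells, rose by 0.67 ± 0.19 at 25% on day 6 (253 ± 9.98, n = 2, against 159 ± 12.5, n = 3, adjusted p = 0.0172) and by 0.67 ± 0.17 on day 9 (adjusted p = 0.00592). PRDM1 also rose without histidine (0.86 ± 0.17, adjusted p = 0.000283) and at 12.5% on day 6 (0.76 ± 0.17, adjusted p = 0.00145), where BCL6 was not called. HDAC1, a histone deacetylase, fell by 0.43 ± 0.08 at 25% on day 9 (adjusted p = 0.000508).

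**Figure D4:**
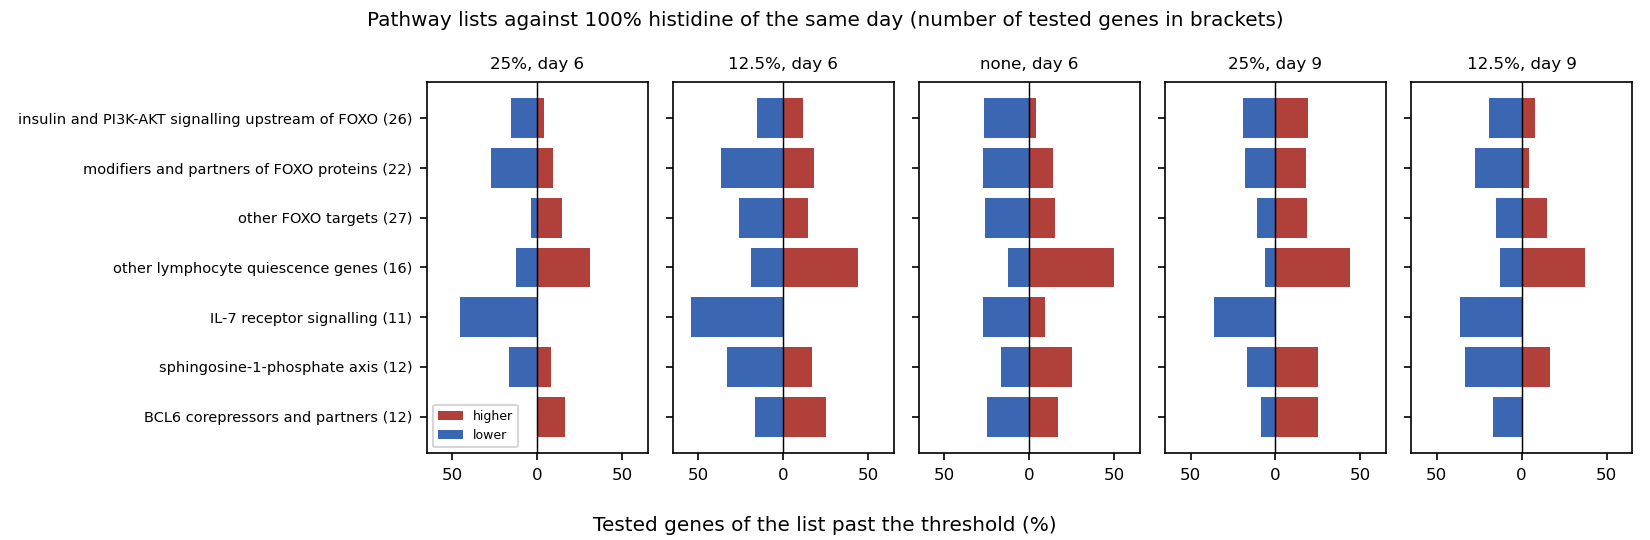
Share of the tested genes of 7 pathway lists that were called against full histidine of the same day in limma (x axis, %; red bars to the right, higher; blue bars to the left, lower; number of tested genes in brackets). The list of other quiescence genes has longer red than blue bars in all 5 panels (8 against 2 genes without histidine), and the interleukin-7 receptor list has no red bar in 4 of them.

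The genes with the most similar pattern were sought among 10753 with a symbol and a mean of at least 50, by Pearson's r of log2 values over the 25 libraries. These libraries share their groups and scaling, so r is given as a description. FOXO3 had the closest partners, PAG1 (r = 0.93, Spearman's rho = 0.95), NCOA7 (0.92 and 0.90) and SETD7 (0.90 and 0.89). IL7R was closest to RIPOR2 (0.90 and 0.90), OXSR1 (0.89 and 0.92) and PJA2 (0.89 and 0.85), and PIK3IP1 to JUN (0.89 and 0.87), RAP2C (0.88 and 0.85) and IP6K2 (0.87 and 0.85). BCL6 was closest to PTK2B, FOXO1 to FOXJ2 (each r = 0.85), S1PR1 to MAD2L1BP (0.83), IRS2 to PARPBP (0.78), FOXO4 to MTERF4 (0.74) and KLF2 to TMEM182 (0.71). Among the 9 genes themselves the highest values were 0.69 for PIK3IP1 and BCL6, 0.67 for IL7R and BCL6 and 0.61 for FOXO4 and PIK3IP1. FOXO1 and FOXO3 were at -0.05.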

How the data were processed

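Strand-specific libraries of DND-41 total RNA were sequenced, as the labels' protocols state. The deposited values are a signal, normalized counts per gene. Per the submitters' processing notes the authors used FastQC 0.11.9, kallisto 0.50.1, DESeq2 1.44.0 and GRCh38. Which annotation, filters and strand setting they used is not given in the sources used here. Size factors remove differences in total RNA per cell. Whole reads could not be recovered: in a library, 37.8% to 76.1% of the values below 20 were whole multiples of the best step to within 0.05. Depth is therefore unknown and no count test was run. Overlapping antisense genes may share reads.

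Groups follow the titles. Days are as on the samples, although the series' own text gives different ones. Genes at 10 or more in at least 2 libraries were kept (18799 of 31919), and limma 3.58.1 (R 4.3.3) was fitted to log2(value + 1) with a mean-variance trend, 9 group means and 16 residual degrees of freedom. Two-sided p-values were adjusted by Benjamini-Hochberg within each of 19 comparisons, with a threshold of 0.05. The procedure was tested on simulated data.

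The 9 genes and the 7 lists were chosen with earlier results of these data known. From a list the text names genes among the 4 largest called changes in a comparison with a mean of at least 50, and AKT1, CDKN1B, BCL2L11, CCNG2, CCR7 and FOXO6 whatever their values. A few further genes covered by it are not reported here. GADD45A without histidine, YWHAZ and YWHAH are named by their direction only, after their values were seen. STAT5B is named as uncalled, also after its values were seen. Coordinates are from GENCODE 29, and promoter windows from RefSeq, GRCh38.p14. Alternatives were other pseudocounts, filters, scalings and weights, no trend, a replicate block, keratin and 5.8S rRNA covariates, fewer groups and leaving out each library or those high in keratin. Figures were drawn with matplotlib 3.10.9.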

Additional observations from a re-analysis of the deposited data

How the results depend on the processing

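The changes and calls of the 9 genes were recomputed under 38 alternatives. The list counts, the changes of list genes, the ordering of group means and the correlations were computed once, without these alternatives. A filter of at least 50 removes KLF2 and IRS2. In 11 of 19 comparisons KLF2 also misses the filter of 10 when the compared groups alone are fitted. Of 6449 values for single genes 6114 kept their direction and side of the threshold, 126 lost the call, 59 gained it, 150 uncalled values moved, and 0 called values turned. Without histidine on day 6 the number of called genes among the 9 went from 3 to 5 with upper-quartile rescaling and to 5 with quantile normalization. At 12.5% on day 6 it went from 2 to 0 with the 5.8S rRNA covariate and to 1 without the keratin-high libraries, and leaving out a library gave 1 to 3. At 25% on day 9 it went from 7 to 4 with the keratin covariate and to 2 without the keratin-high libraries, and leaving out a library gave 3 to 7. At 12.5% on day 9 leaving out a library gave 1 to 4 in place of 3, and from 12.5% to none 1 to 3 in place of 2. Between days at full histidine it was 1 in place of 0 with library weights and with the 5.8S rRNA covariate, and 0 to 1 on leaving out a library. With upper-quartile rescaling the median change of all genes against full histidine was at most 0.12 (12.5%, day 6, in place of 0.04). The causes were not tested. Low values limit KLF2, IRS2 and S1PR1 most.

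With the replicate number as a replicate block, 4 of the 9 genes were called without histidine on day 6, FOXO4 being added (0.30, adjusted p = 0.0424), 2 at 12.5% and 3 at 25% on day 6, and 3 and 7 at 12.5% and 25% on day 9. Libraries of the same number shared no visible deviation. Over 92 same-number pairs the correlation of deviations from group means was -0.13 to 0.08, and 0 were over 0.1. Over 185 pairs of different number it was -0.13 to 0.12, and 4 were over 0.1. Low correlations cannot tell whether equal numbers mark a shared culture or batch.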
